A study of Mus musculus with 4 samples.

Results

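The proteasome genes of mouse cardiac endothelium were followed through 4 RNA sequencing libraries. A gene was taken as a member if its symbol was Psm followed by a, b, c, d or e and a number, with 1 gene of that pattern not included. The rule found 42 genes among the 45882 gene IDs of the table, and used no measured value. They were sorted by role into the alpha ring of the core (8 genes), the constitutive beta ring and its thymic variant (8), the ATPases of the regulatory cap (6), the other cap genes with their assembly chaperones (14), other activators (2) and interferon-induced genes (4).

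The study compared 4 groups of male mice, each with 1 library: Smad3 KO mice given doxorubicin (Smad3 KO Dox), Smad3 KO mice given saline (Smad3 KO saline), wild-type mice given doxorubicin (WT Dox) and wild-type mice given saline (WT saline). Weekly tail vein injections, 4 in all, of 5 mg/kg doxorubicin or of saline began at an age of 7 weeks, and hearts were taken at 20 weeks, 9 wk after the last injection. Smad3 is the transcription factor that carries TGF-β signals into the nucleus, and the knockout is a targeted allele present in every cell of the animal, so endothelium was not the only tissue without it. Endothelial cells were picked from digested hearts in 2 rounds with magnetic beads against CD31, and how many mice stand behind a library is not given in the sources used here. With 1 library per group, differences have no replicate check, and neither an error nor a test is given for any of them.

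The proteasome is the main protease of the cytosol and nucleus and degrades proteins tagged with ubiquitin. Its core is a barrel of stacked rings: outer alpha rings gate the entrance, and inner beta rings hold the cutting sites. A regulatory cap binds ubiquitin chains, removes them, and threads the unfolded protein into the core with a ring of ATPases. Interferon induces beta subunits that take the place of constitutive ones, and an activator ring of Psme1 and Psme2, which together favor peptides for presentation on class I molecules. Endothelial cells line vessels and carry these subunits along with the constitutive ones.

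Levels are in FPKM, the sequenced fragments of a gene scaled by transcript length and library size, so levels of different genes can be set side by side. Differences are between values of log2(FPKM + 0.5) in 2 libraries, which makes the change of weakly transcribed genes look smaller. They were taken for the 12325 genes whose mean over the 4 libraries was 1 FPKM or more, of which 40 were proteasome genes. The words rose and fell are kept for differences of at least 1, a size by which the study filtered its gene lists, and differences of at least 0.5 are counted beside it as a description. Members that did not reach the filter were Psma8, an alpha subunit of the testis, with 0.325 FPKM in Smad3 KO Dox, 0.687 in Smad3 KO saline, 0.609 in WT Dox and 0.646 in WT saline, and Psmb11, the beta subunit of thymic epithelium, with 0.572 FPKM in Smad3 KO Dox, 0.223 in Smad3 KO saline, 0.123 in WT Dox and 0.0975 in WT saline. Both stood far below every other member in all 4 libraries.

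The libraries were not alike in other respects. Smad3 itself had 0.848 FPKM in Smad3 KO Dox and 1.02 FPKM in Smad3 KO saline, against 2.09 FPKM in WT Dox and 2.95 FPKM in WT saline. The order follows the sample titles, which set the groups here, although the genotype tag named the other genotype for 2 of the 4 samples, the Smad3 KO saline and WT Dox libraries by title. The 9 endothelial markers were all detected and summed to 5538 to 6229 FPKM per library, most of it Fabp4. The other 8 summed to 1698 FPKM in Smad3 KO Dox, against 2067 in Smad3 KO saline, 2065 in WT Dox and 2169 in WT saline. Cdh5, the cadherin of endothelial junctions, was lowest in Smad3 KO Dox, with 168 FPKM there and 341 in Smad3 KO saline, against 372 in WT Dox and 475 in WT saline. Between the Dox libraries it was the only 1 of the 9 lower by at least 0.5, and 0 were higher by as much. Tie1 (-0.38), Pecam1 (-0.28), Kdr (-0.25) and Tek (-0.23) were lower by less. Emcn (0.01), Fabp4 (0.08), Egfl7 (0.19) and Cldn5 (0.21) were level or higher, so these markers did not move as a block. The 8 cardiomyocyte markers, all detected, summed to 1856 FPKM in Smad3 KO Dox, 1344 in Smad3 KO saline, 1034 in WT Dox and 794 in WT saline. Of the 8, 6 were highest in Smad3 KO Dox, against 41.5% of all genes tested. Myh6, the cardiac myosin heavy chain, was not, with 87.6 FPKM in Smad3 KO Dox and 153 in Smad3 KO saline, against 112 in WT Dox and 68.5 in WT saline. Nor was Ryr2, which did not reach the filter, with 0.489 FPKM in Smad3 KO Dox and 0.864 in Smad3 KO saline, against 0.708 in WT Dox and 1.08 in WT saline. The 5 fibroblast markers were all detected, with 3 of the 5 highest in Smad3 KO Dox, against the same 41.5%. They summed to 239 FPKM in Smad3 KO Dox, 191 in Smad3 KO saline, 181 in WT Dox and 171 in WT saline. Without Dcn, the most abundant, the sums were close, at 51.8, 51.4, 47.6 and 48.9 FPKM in the same order. Pdgfra was lower in Smad3 KO Dox (2.40 FPKM) than in WT Dox (4.06 FPKM). The 9 macrophage markers, also all detected, ran opposite to the cardiomyocyte sum. They summed to 83.7 FPKM in Smad3 KO Dox, 173 in Smad3 KO saline, 325 in WT Dox and 341 in WT saline. The 6 red blood cell markers summed to 28548 FPKM in Smad3 KO Dox, 10289 in Smad3 KO saline, 4384 in WT Dox and 4423 in WT saline, with Slc4a1, an anion exchanger of the red cell membrane, at the floor of the table in WT Dox. The 5 pericyte and smooth muscle markers summed to 926 FPKM in Smad3 KO Dox, 1101 in Smad3 KO saline, 957 in WT Dox and 722 in WT saline. The 5 T and B cell markers summed to 4.67 to 6.75 FPKM per library. Cardiomyocyte and red blood cell marker sums were thus highest in Smad3 KO Dox, the library in which most proteasome genes were highest. So was the fibroblast sum, mainly through Dcn. The macrophage sum and that of the endothelial markers other than Fabp4 were lowest there. The part of these sums in the results below was not tested. In bulk RNA, fewer cells of a type and less RNA per cell cannot be told apart.

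Promoter sequences are shown for 5 members that span the range of differences found. They include Psmb9, the member with the largest difference between the Dox libraries, and Psmb6, the constitutive subunit that it replaces. Also shown are Psmb5, another cutting subunit, Psme1 of the interferon-induced activator, and Psme4. Of the 40 members above the filter, only Psme4 was lower in the Smad3 KO Dox library than in the WT Dox library. Each run covers 250 bases before to 50 bases after the annotated start of RefSeq on the build GRCm38.p6, 5′ to 3′ along the gene. Capitals mark matches to TGACNNNGC, the core of the antioxidant response element bound by Nfe2l1 and Nfe2l2, or to GAAANNGAAA, the core of the interferon-stimulated response element, on either strand.
Psmb9 (chr17:34187281-34187580, minus strand): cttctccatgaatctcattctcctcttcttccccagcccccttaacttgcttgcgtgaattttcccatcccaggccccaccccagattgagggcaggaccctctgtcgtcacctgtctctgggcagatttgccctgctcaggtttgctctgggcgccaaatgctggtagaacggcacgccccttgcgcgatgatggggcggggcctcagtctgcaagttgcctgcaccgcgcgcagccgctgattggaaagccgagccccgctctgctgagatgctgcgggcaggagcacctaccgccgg
Psmb6 (chr11:70525107-70525406, plus strand): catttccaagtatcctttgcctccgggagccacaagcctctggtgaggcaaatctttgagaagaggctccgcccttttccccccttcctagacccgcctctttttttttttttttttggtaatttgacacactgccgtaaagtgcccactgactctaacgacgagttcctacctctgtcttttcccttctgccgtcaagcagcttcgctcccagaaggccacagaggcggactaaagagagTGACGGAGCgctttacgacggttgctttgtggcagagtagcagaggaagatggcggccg
Psmb5 (chr14:54617946-54618245, minus strand): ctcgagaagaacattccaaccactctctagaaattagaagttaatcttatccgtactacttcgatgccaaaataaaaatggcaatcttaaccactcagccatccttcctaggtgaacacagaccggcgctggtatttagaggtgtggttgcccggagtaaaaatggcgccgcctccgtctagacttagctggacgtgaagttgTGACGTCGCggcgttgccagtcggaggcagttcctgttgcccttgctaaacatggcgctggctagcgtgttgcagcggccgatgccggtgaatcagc
Psme1 (chr14:55578244-55578543, plus strand): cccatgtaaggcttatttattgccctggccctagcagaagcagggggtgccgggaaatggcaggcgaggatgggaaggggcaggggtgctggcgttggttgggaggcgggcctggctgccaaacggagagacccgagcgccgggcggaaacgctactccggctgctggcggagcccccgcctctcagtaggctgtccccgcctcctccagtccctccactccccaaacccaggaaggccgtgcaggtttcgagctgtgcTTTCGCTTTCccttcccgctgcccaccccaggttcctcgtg
Psme4 (chr11:30771525-30771824, plus strand): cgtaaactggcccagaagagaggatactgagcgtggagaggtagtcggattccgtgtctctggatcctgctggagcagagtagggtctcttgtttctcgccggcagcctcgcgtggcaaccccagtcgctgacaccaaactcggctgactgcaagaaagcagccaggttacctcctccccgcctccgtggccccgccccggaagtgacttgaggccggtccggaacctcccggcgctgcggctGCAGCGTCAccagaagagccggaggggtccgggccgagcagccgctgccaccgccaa
The antioxidant core stood within the 50 bases before the start in Psmb6 and Psmb5 and across the start in Psme4, on the opposite strand. Psme1 held the interferon-stimulated core just after its start, and the Psmb9 window held neither.

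Across the proteasome, the Smad3 KO Dox library held the most transcript. Of the 40 members, 38 had their highest level there, where 41.5% of all genes tested did, the exceptions being the activators Psme3 and Psme4. The median level was 65.6 FPKM in Smad3 KO Dox and 48.9 FPKM in Smad3 KO saline, against 43.8 FPKM in WT Dox and 40.9 FPKM in WT saline. Both Smad3 KO libraries lay above both WT libraries for 34 of the 40, against 28.0% of all genes. The 6 without that order were Psma1 and Psma3 of the alpha ring, Psmd5, Psmd10 and Psmd11 of the cap group, and Psme4. A strict order of Smad3 KO Dox, Smad3 KO saline, WT Dox, WT saline from high to low was found for 23 of the 40, against 14.4% of all genes. These orders are of FPKM as deposited, and were not counted with other scalings. They depend on the scaling: with libraries rescaled to an equal sum (TPM), the median difference of the members between Smad3 KO saline and WT saline was -0.10.

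**Figure D1:**
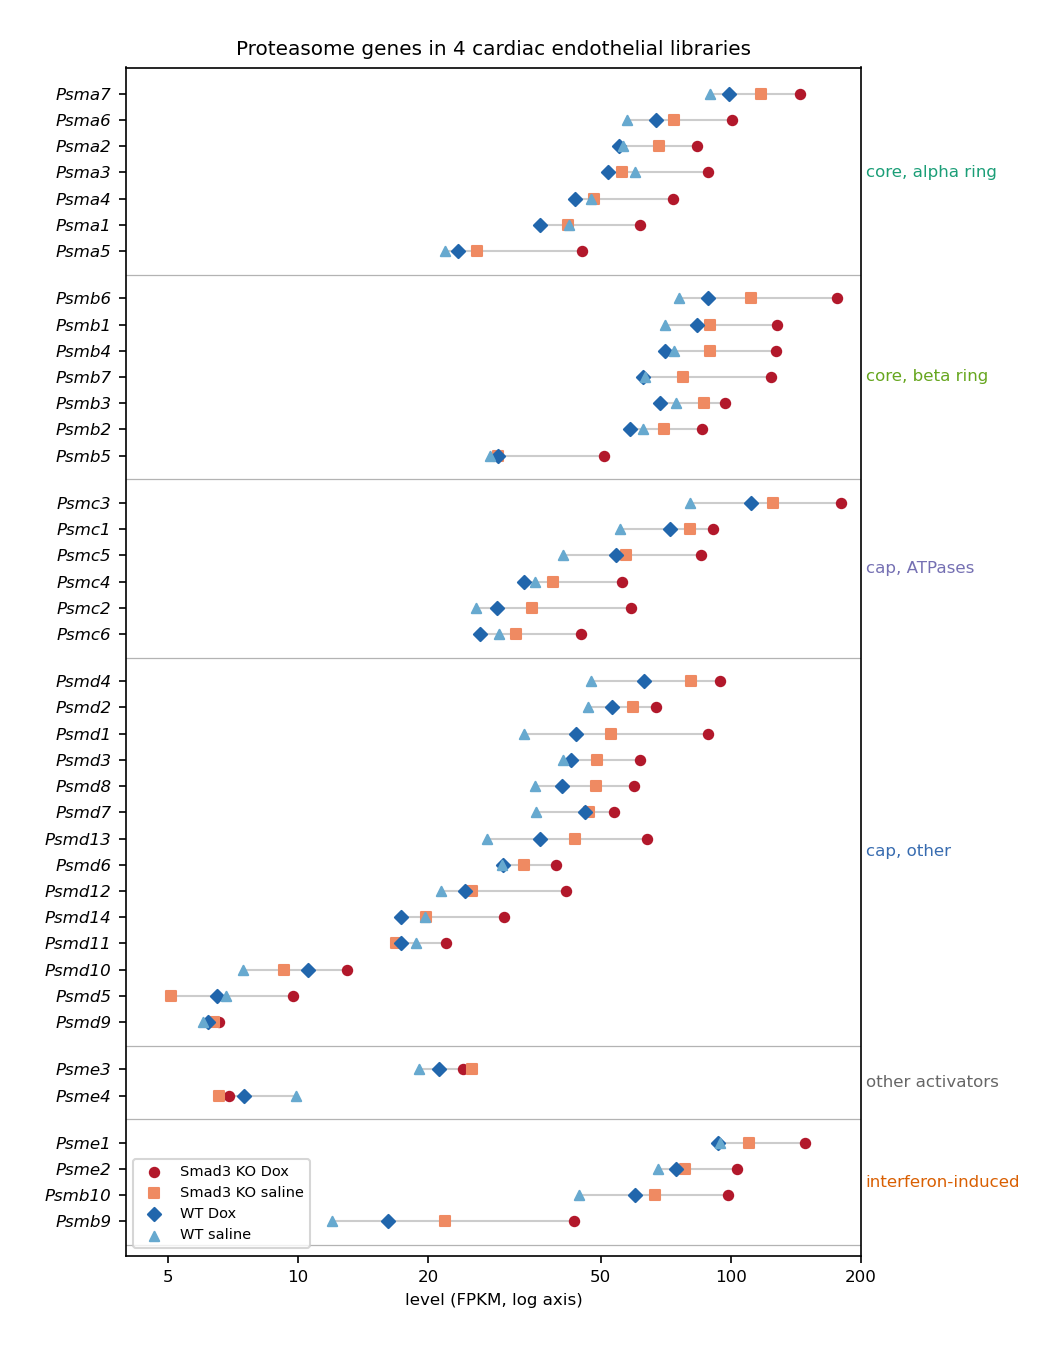
Level of each of 40 proteasome genes (rows, grouped by role) in FPKM on a log axis, with 1 point for each of the 4 libraries and a grey line over their range. The red circles of Smad3 KO Dox are the rightmost points in 38 of the 40 rows, all but Psme3 and Psme4.

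The levels ran over more than an order of magnitude, and the order of the genes was much alike in the 4 libraries, with Spearman correlations of 0.96 to 0.97 across the 40 genes for the 4 pairs compared. These genes share the library they are read from and are not replicates. Psmc3, a cap ATPase, had the highest level of all in 3 libraries, at 179 FPKM in Smad3 KO Dox, 125 FPKM in Smad3 KO saline and, for WT Dox, 112 FPKM, and in WT saline (80.7 FPKM) stood below Psme1. At the other end, Psmd9, an assembly chaperone that is not part of the finished particle, had 6.55 FPKM in Smad3 KO Dox, 6.4 FPKM in Smad3 KO saline, 6.18 FPKM in WT Dox and 6.02 FPKM in WT saline. It was the flattest member, with differences of 0.03 to 0.08 in the 4 comparisons.

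The comparison of Smad3 KO Dox with WT Dox asked how proteasome transcripts of doxorubicin-treated endothelium differ without Smad3. Nearly the whole complex was higher in Smad3 KO Dox: 39 of 40 members, against 57.8% of all genes. By at least 0.5, 30 of the 40 were higher, against 24.0% of all genes, and 0 were lower by as much, against 15.2%. The median difference of the members was 0.63, where that of all genes was 0.12. Median-ratio scaling, which puts the median of all genes at 0.01, left 20 of the 40 higher by at least 0.5, against 18.9% of all genes. With the trend over transcript length removed, 9 of the 40 were higher by that much, against 15.0%. Only 3 members rose by the full size rule, against 6.17% of all genes, and 0 fell, against 3.75%. Those that rose were Psmb9, Psmc2 and Psmd1.

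The 3 belong to different parts of the particle. Psmb9, the interferon-induced beta subunit that replaces Psmb6, had 43.4 FPKM in Smad3 KO Dox and 21.9 FPKM in Smad3 KO saline, against 16.2 FPKM in WT Dox and 12 FPKM in WT saline. It rose in Smad3 KO Dox against WT Dox by 1.40. Psmc2, an ATPase of the cap, had 58.8 FPKM in Smad3 KO Dox and 34.8 FPKM in Smad3 KO saline, against 28.8 FPKM in WT Dox and 25.7 FPKM in WT saline. Psmd1, the large cap scaffold on which a ubiquitin receptor docks, had 88.7 FPKM in Smad3 KO Dox and 52.8 FPKM in Smad3 KO saline, against 43.9 FPKM in WT Dox and 33.3 FPKM in WT saline. All of them had the full order from Smad3 KO Dox at the top to WT saline at the bottom. Psmc2 (1.02) and Psmd1 (1.01) stood at the edge of the rule, and fell short of it with median-ratio scaling of the libraries, at 0.91 and 0.90, where Psmb9 kept 1.29. Beside the 3, Psmb6 and Psmb7, both at 0.98, were the nearest members that did not pass.

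The core rings were the most uniform part. All 7 constitutive alpha genes and all 7 constitutive beta genes above the filter were higher in Smad3 KO Dox than in the WT Dox library by at least 0.5. The median difference was 0.75 in the alpha ring, with a range of 0.55 for Psma7 to 0.94 for Psma5, and 0.80 in the beta ring, with a range of 0.50 for Psmb3 to 0.98 for Psmb6. Psmb6, the constitutive subunit that cuts after acidic residues, had 176 FPKM in Smad3 KO Dox and 111 FPKM in Smad3 KO saline, against 88.8 FPKM in WT Dox and 75.7 FPKM in WT saline. Psmb7, which cuts after basic residues, had 124 FPKM in Smad3 KO Dox and 77.5 FPKM in Smad3 KO saline, against 62.7 FPKM in WT Dox and 63.3 FPKM in WT saline. In Psmb7 the WT libraries were level with each other, while Psmb6 was graded over all 4.

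Psmb5, the subunit that cuts after bulky hydrophobic residues and the chief target of proteasome inhibitors, had a different shape. It had 50.8 FPKM in Smad3 KO Dox and 29.0 FPKM in Smad3 KO saline, against 28.9 FPKM in WT Dox and 27.8 FPKM in WT saline, so that 1 library stood apart and the other 3 lay together. Psma1 and Psma3, structural subunits of the alpha ring, were alike in this. Psma1 had 61.5 FPKM in Smad3 KO Dox and 42.1 FPKM in Smad3 KO saline, against 36.3 FPKM in WT Dox and 42.2 FPKM in WT saline. Psma3 had 88.7 FPKM in Smad3 KO Dox and 56.1 FPKM in Smad3 KO saline, against 52.1 FPKM in WT Dox and 60.1 FPKM in WT saline. For both genes the 2 saline libraries were close, and WT Dox was the lowest of the 4.

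The cap was more mixed. Of its 6 ATPases, 5 were higher in Smad3 KO Dox than in the WT Dox library by at least 0.5, with a median of 0.72 and a range of 0.33 for Psmc1 to 1.02 for Psmc2. Of the other 14 cap genes, 8 were higher by that much, with a median of 0.53 and a range of 0.08 for Psmd9 to 1.01 for Psmd1. Psmd13, a structural subunit of the lid, had 64.1 FPKM in Smad3 KO Dox and 43.7 FPKM in Smad3 KO saline, against 36.2 FPKM in WT Dox and 27.4 FPKM in WT saline, a difference of 0.82 between the Dox libraries. Psmd4, a receptor for ubiquitin chains, had 94.6 FPKM in Smad3 KO Dox and 80.8 FPKM in Smad3 KO saline, against 63.1 FPKM in WT Dox and 47.5 FPKM in WT saline. In these cap genes, as in Psmd1, the 4 libraries were spread out with no pair level.

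The chaperones that build the cap base did not move as a block. Psmd5 had 9.73 FPKM in Smad3 KO Dox and 5.08 FPKM in Smad3 KO saline, against 6.48 FPKM in WT Dox and 6.83 FPKM in WT saline. Psmd10, also known as gankyrin, had 13 FPKM in Smad3 KO Dox and 9.27 FPKM in Smad3 KO saline, against 10.5 FPKM in WT Dox and 7.45 FPKM in WT saline. Psmd5 was thus lowest in Smad3 KO saline and Psmd10 in WT saline, and Psmd9 was flat, as above. Psmd11, a lid subunit, had 22 FPKM in Smad3 KO Dox and 16.9 FPKM in Smad3 KO saline, against 17.3 FPKM in WT Dox and 18.7 FPKM in WT saline, with the other 3 libraries close together below Smad3 KO Dox.

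The activators outside the interferon-induced pair stood apart in their values. Psme3, which forms a ring on nuclear cores and does not need ubiquitin, had 24.0 FPKM in Smad3 KO Dox and 25.3 FPKM in Smad3 KO saline, against 21.2 FPKM in WT Dox and 19 FPKM in WT saline. Psme4, a large single-chain activator of the nucleus, had 6.92 FPKM in Smad3 KO Dox and 6.58 FPKM in Smad3 KO saline, against 7.50 FPKM in WT Dox and 9.88 FPKM in WT saline. Their differences between the Dox libraries were 0.18 and -0.11. Both transcripts, of 2664 and 6491 bases, are longer than that of the median member (1490 bases). All genes in the bins of length around them, with median lengths of 2641 and 6554 bases, had median differences of 0.17 and -0.37. Neither activator thus lay below genes of its length. Medians by role were not taken with the trend over length removed. Psme4 is the only member whose level was lower in both Smad3 KO libraries than in both WT libraries.

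**Figure D2:**
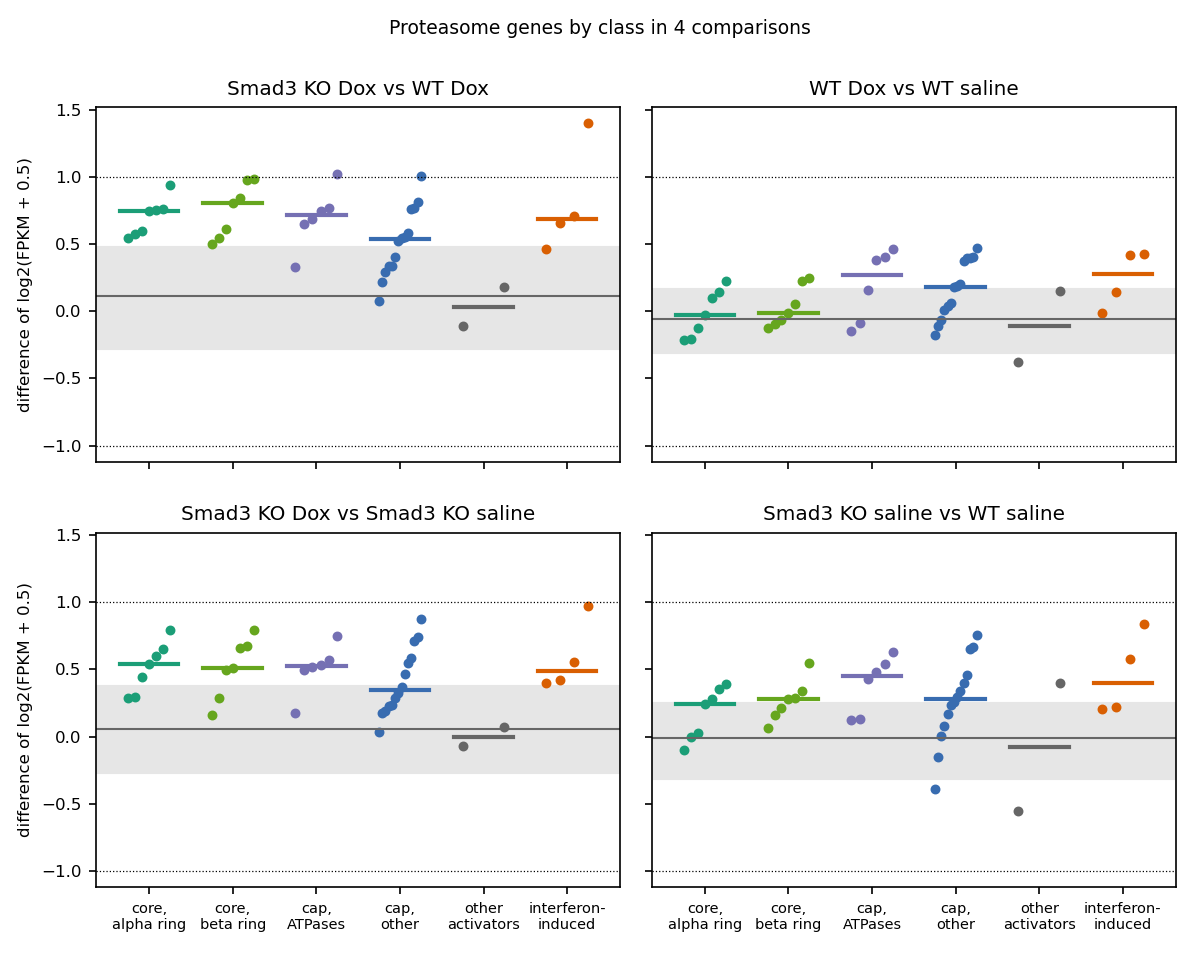
Difference of log2(FPKM + 0.5) for each of 40 proteasome genes (points) by role in 4 comparisons, with short bars at the median of each role, a grey line and band at the median and middle 50% of 12325 genes, and dotted lines at the size rule of 1. All 14 points of the core rings lie at or above 0.5 in Smad3 KO Dox vs WT Dox, where 24.0% of all genes do. In WT Dox vs WT saline no member passes 0.5 in either direction, against 5.06% of all genes higher and 13.1% lower. Rescaling to TPM would shift whole panels, by up to -0.37 for the median of all genes in Smad3 KO saline vs WT saline.

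Interferon-induced members were examined beside constitutive genes. For Psmb9 and Psmb10 these were the subunits whose place they take. Psme1 and Psme2 were set beside Psme3, a separate activator, so their ratio to it does not describe an exchange of subunits. All 4 interferon-induced genes were highest in Smad3 KO Dox, against 41.5% of all genes. Of the 4, 3 were higher there than in WT Dox by at least 0.5, against 24.0% of all genes. The median of the 4 was 0.68. Psmb10, which replaces Psmb7, had 98.4 FPKM in Smad3 KO Dox and 66.8 FPKM in Smad3 KO saline, against 60.1 FPKM in WT Dox and 44.7 FPKM in WT saline. Psme1, a subunit of the interferon-induced activator ring, had 148 FPKM in Smad3 KO Dox and 110 FPKM in Smad3 KO saline, against 93.6 FPKM in WT Dox and 94.6 FPKM in WT saline. Its partner Psme2 had 103 FPKM in Smad3 KO Dox and 78.2 FPKM in Smad3 KO saline, against 74.9 FPKM in WT Dox and 67.9 FPKM in WT saline. Without the 4 interferon-induced genes, 27 of 36 members were higher in Smad3 KO Dox than in the WT Dox library by at least 0.5. Of all genes 24.0% were, and the median of the 36 members was 0.60.

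A ratio of levels within a library does not depend on how libraries are scaled to each other. A trend over transcript length does not cancel in it where the genes differ in length, as Psme1 (1112 bases) and Psme3 (2664 bases) do. Bins of all genes with median lengths of 1163 and 2641 bases had medians of 0.41 and 0.17 in Smad3 KO Dox against WT Dox. The same limit holds for sums over roles. Psmb9 stood at 0.247 of the level of Psmb6 in Smad3 KO Dox and 0.197 in Smad3 KO saline, against 0.182 in WT Dox and 0.158 in WT saline. The ratio of Psmb10 to Psmb7 went another way, at 0.793 in Smad3 KO Dox and 0.862 in Smad3 KO saline, against 0.958 in WT Dox and 0.706 in WT saline. Relative to its constitutive counterpart, then, Psmb9 was highest in Smad3 KO Dox and Psmb10 was highest in WT Dox. Psme1 had 6.17 times the level of Psme3 in Smad3 KO Dox and 4.37 times in Smad3 KO saline, against 4.42 times in WT Dox and 4.98 times in WT saline. The 4 interferon-induced genes together came to 0.284 of the summed level of the core rings in Smad3 KO Dox, 0.281 in Smad3 KO saline, 0.292 in WT Dox and 0.266 in WT saline. That sum followed the core closely in every library, and the core in turn summed to 1.19 times the cap in Smad3 KO Dox, 1.14 times in Smad3 KO saline, 1.10 times in WT Dox and 1.28 times in WT saline.

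**Figure D3:**
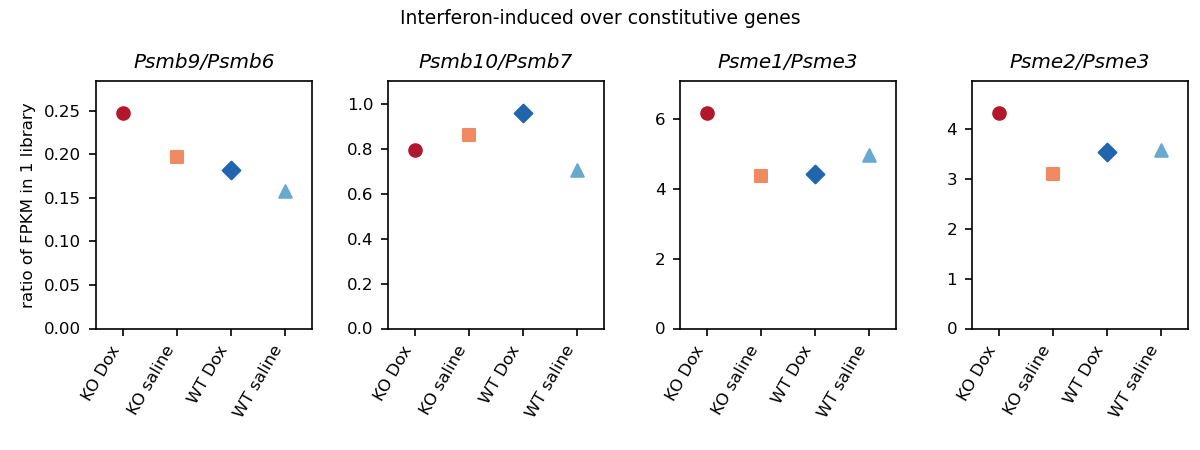
Ratio of the FPKM of an interferon-induced gene to that of a constitutive gene within each of 4 libraries, 1 point per library, on axes that start at 0. The Psmb9 to Psmb6 ratio is highest in Smad3 KO Dox (0.247) and lowest in WT saline (0.158), and the Psmb10 to Psmb7 ratio is highest in WT Dox (0.958).

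The comparison of WT Dox with WT saline asked what remained of doxorubicin in wild-type endothelium 9 wk after treatment. As deposited, the proteasome genes were close in these libraries. None of the 40 rose or fell, against 3.72% of all genes, and none was higher by at least 0.5, against 5.06% of all genes, or lower by as much, against 13.1%. With upper-quartile scaling 9 of the 40 were higher by at least 0.5, against 8.86% of all genes. The median of the members was 0.12 and that of all genes -0.06. With libraries rescaled to an equal sum (TPM), the median of the members turned to -0.06 and that of all genes to -0.24, so no direction can be given. Medians by role were -0.03 in the alpha ring, -0.01 in the beta ring, 0.27 in the cap ATPases, 0.18 in the other cap genes and 0.28 in the interferon-induced genes. The highest members were Psmd10 (0.47), Psmc3 (0.47) and Psmb10 (0.42), and the lowest were Psme4 (-0.38), Psma1 (-0.21) and Psma3 (-0.20).

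The comparison of Smad3 KO Dox with Smad3 KO saline put the same question to endothelium without Smad3. Here 39 of 40 members were higher in Smad3 KO Dox, against 54.8% of all genes, and 19 were higher by at least 0.5, against 17.5%. None was lower by that much, against 13.6%, and none reached the size rule, against 6.86%. The median of the members was 0.50, where that of all genes was 0.05. Genes of similar length, within the middle 50% of the members' lengths, had a median of 0.25, with 26.1% higher by at least 0.5. With the trend over length removed, the median of the members was 0.24 and 5 of 40 were higher by at least 0.5, near the 12.7% of all genes. Psmb9 (0.97), Psmd5 (0.87) and Psmb5 (0.80) had the largest differences, from an interferon-induced subunit, a chaperone and a constitutive cutting subunit. Roles ranked from the ring of alpha subunits (0.54), the cap ATPases (0.52) and the beta ring (0.51) and the interferon-induced genes (0.49) down to the other cap genes (0.35), with Psme3 (-0.07) and Psme4 (0.07) at the low end beside Psmd9 (0.03). The alpha, beta and ATPase medians thus lay close together. Roles differ in transcript length, and over all genes this comparison fell with length, to a median of -0.31 above 5000 bases. The trend over length was not removed from medians by role in any comparison.

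Subtracting the doxorubicin difference of WT from that of Smad3 KO gave a median of 0.33 over the 40 members and 0.12 over all genes, and genes of similar length had 0.26. With the trend over length removed, the median of the members was 0.14, with 3 of 40 higher by at least 0.5, against 17.2% of all genes. It was 0.21 with median-ratio scaling, 0.18 with upper-quartile scaling and 0.76 after rescaling to TPM, where all genes had 0.01, -0.03 and 0.53. As deposited, it was 0.70 in the alpha ring, 0.43 in the beta ring, 0.38 in the cap ATPases, 0.35 in the interferon-induced genes and 0.19 in the other cap genes. Values ran from -0.22 for Psme3 to 0.94 for Psmd5. This value contains all 4 libraries once, so a chance deviation in any of them enters it, and it could not be tested.

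The comparison of Smad3 KO saline with WT saline gave the genotypes without doxorubicin. Of the 40 members, 8 were higher in Smad3 KO saline by at least 0.5, against 10.0% of all genes, and 1, Psme4 (-0.55), was lower, against 14.6%. None reached the size rule, against 4.72%. The median was 0.28 in the members and -0.01 in all genes. Psmb9 (0.84), Psmd4 (0.76) and Psmd13 (0.67) were the highest, and Psmd5 (-0.39) and Psmd11 (-0.15) were the lowest after Psme4. The direction rests on the scaling: after rescaling to TPM the median of the members was -0.10 and that of all genes -0.38, and by at least 0.5 none of the 40 was higher, against 2.79% of all genes, and 3 were lower, against 39.9%. Relative to all genes the members stood 0.29 higher as deposited and 0.28 higher after rescaling. With the trend over length removed, 5 were higher by at least 0.5, against 9.20% of all genes. The 2 comparisons with Smad3 KO Dox share that library, and the 2 with WT saline share that one, so their values are given side by side and are not independent.

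Mitochondrially encoded genes, which enter the sum that TPM fixes, took 8.95% of all FPKM in Smad3 KO Dox, 20.1% in Smad3 KO saline, 16.8% in WT Dox and 10.5% in WT saline. The 42 proteasome genes took 0.529% of all FPKM in Smad3 KO Dox, 0.324% in Smad3 KO saline, 0.324% in WT Dox and 0.336% in WT saline. As a share, then, 1 library stood above 3 that were nearly equal. Without the mitochondrially encoded genes the shares were 0.581% in Smad3 KO Dox, 0.405% in Smad3 KO saline, 0.389% in WT Dox and 0.376% in WT saline.

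Transcript length moved with the differences over all genes. Proteasome transcripts are short, with a median of 1490 bases where all genes have 2821 bases. Among the 2728 genes within the middle 50% of the lengths of the members, 37.5% were higher in Smad3 KO Dox than in the WT Dox library by at least 0.5, with a median of 0.35, and among the 2186 genes over 5000 bases the median was -0.35. With this trend removed by a running median, the median of the members was 0.28 and 35 of 40 lay above 0. Psmb9 then stood at 0.998, Psmd1 at 0.86 and Psmc2 at 0.70, all short of the size rule. Psme4, the longest at 6491 bases, lay above the median of genes of its length. How far the trend comes from the libraries or from the cells was not tested.

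**Figure D4:**
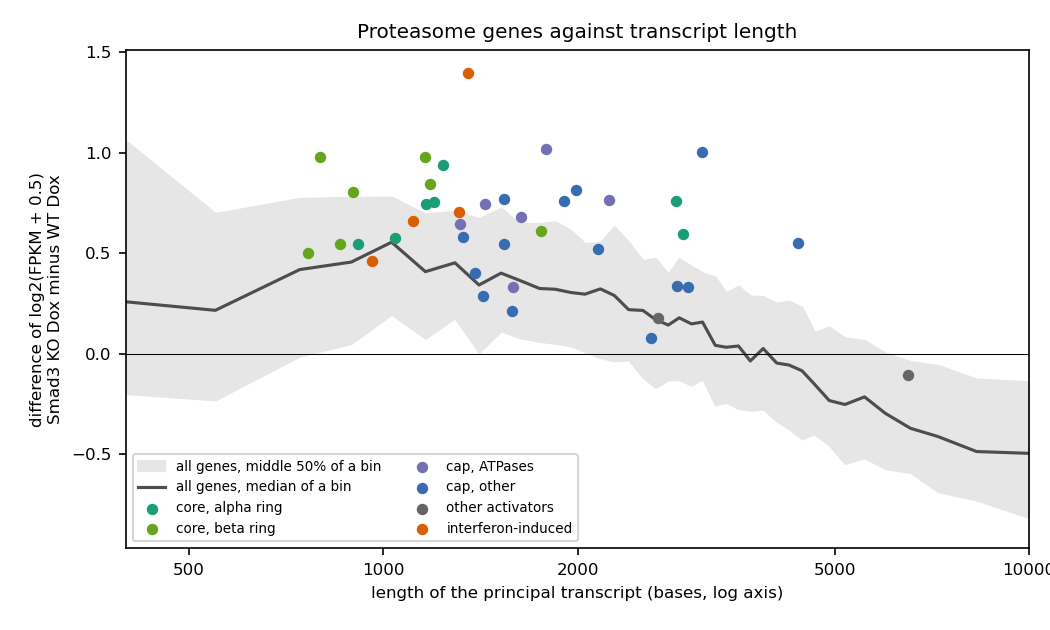
Difference of log2(FPKM + 0.5) between Smad3 KO Dox and WT Dox against the length of the principal transcript in bases (log axis), with proteasome genes as points colored by role and the median and middle 50% of all genes in bins of length as a line and a band. The line falls with length, and 35 of the 40 points lie above the running median of genes of their length.

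Other multi-subunit machines were set beside the proteasome. Nuclear genes of oxidative phosphorylation, with a median length of 823.5 bases, had a median of 0.53 in Smad3 KO Dox against WT Dox. Of these, 43 of 80 were higher by at least 0.5, against 24.0% of all genes. Cytosolic ribosomal protein genes, about as short (887 bases), had a median of 0.20, with 7 of 79 higher by as much. Genes of the CCT chaperonin, a folding chamber, had 0.23, with 0 of 8, at a median length of 2417.5 bases. Proteasome genes were therefore not alone in this difference, and no test of their distance from these groups was possible.

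Genes that serve the proteasome but lie outside the symbol pattern were read from a list of 28, all above the filter. In Smad3 KO Dox against WT Dox, 12 of the 28 were higher by at least 0.5, against 24.0% of all genes. In the same comparison 1 was lower by as much, against 15.2%, and the median was 0.28. In WT Dox against WT saline 2 of the 28 were higher, against 5.06% of all genes, and 4 lower, against 13.1%. In Smad3 KO Dox against Smad3 KO saline 6 were higher, against 17.5%, and 1 lower, against 13.6%. In Smad3 KO saline against WT saline 3 were higher, against 10.0%, and 2 lower, against 14.6%. The 5 assembly genes had a median of 0.85 between the Dox libraries, with Psmg1, Psmg2, Psmg3 and Psmg4 at the top of the whole list and Pomp at 0.28. Psmg1, a chaperone that assembles the alpha ring, had 14.6 FPKM in Smad3 KO Dox and 8.73 FPKM in Smad3 KO saline, against 4.51 FPKM in WT Dox and 6.63 FPKM in WT saline. Psmg1 rose by 1.59 between the Dox libraries, and its partner Psmg2 by 1.004, at the edge of the rule. Psmf1, an inhibitor that binds the core, had 15.6 FPKM in Smad3 KO Dox and 11.5 FPKM in Smad3 KO saline, against 10.6 FPKM in WT Dox and 8.45 FPKM in WT saline. Cap partners had a median of 0.51, with 5 of 9 higher by at least 0.5, among them Adrm1 (0.53), the receptor that docks on Psmd1.

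Between the Dox libraries, the listed regulators of proteasome transcription lay below 0, where most members lay above. Nfe2l1, the factor that drives proteasome genes when the proteasome is short, had 177 FPKM in Smad3 KO Dox and 207 FPKM in Smad3 KO saline, against 232 FPKM in WT Dox and 154 FPKM in WT saline. Its difference was -0.38 between the Dox libraries, but 0.59 in WT Dox against WT saline. In Smad3 KO saline against WT saline it was 0.42. Ddi2, the protease that activates Nfe2l1, had 8.34 FPKM in Smad3 KO Dox and 11.7 FPKM in Smad3 KO saline, against 11.8 FPKM in WT Dox and 16.4 FPKM in WT saline. Among the 6 regulators, 0 were higher by at least 0.5 in Smad3 KO Dox against WT Dox, against 24.0% of all genes. In the same comparison 1 of the 6, the partner gene Mafg (-0.67), was lower by as much, near the 15.2% of all genes. The median of the 6 was -0.32, and the trend over length was not removed for these genes. Of the 4 genes listed for ubiquitin and its activation, 1 was higher by at least 0.5 in that comparison, against 24.0% of all genes. It was Ubb, which encodes chains of ubiquitin, and it had 893 FPKM in Smad3 KO Dox and 572 FPKM in Smad3 KO saline, against 602 FPKM in WT Dox and 784 FPKM in WT saline.

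**Figure D5:**
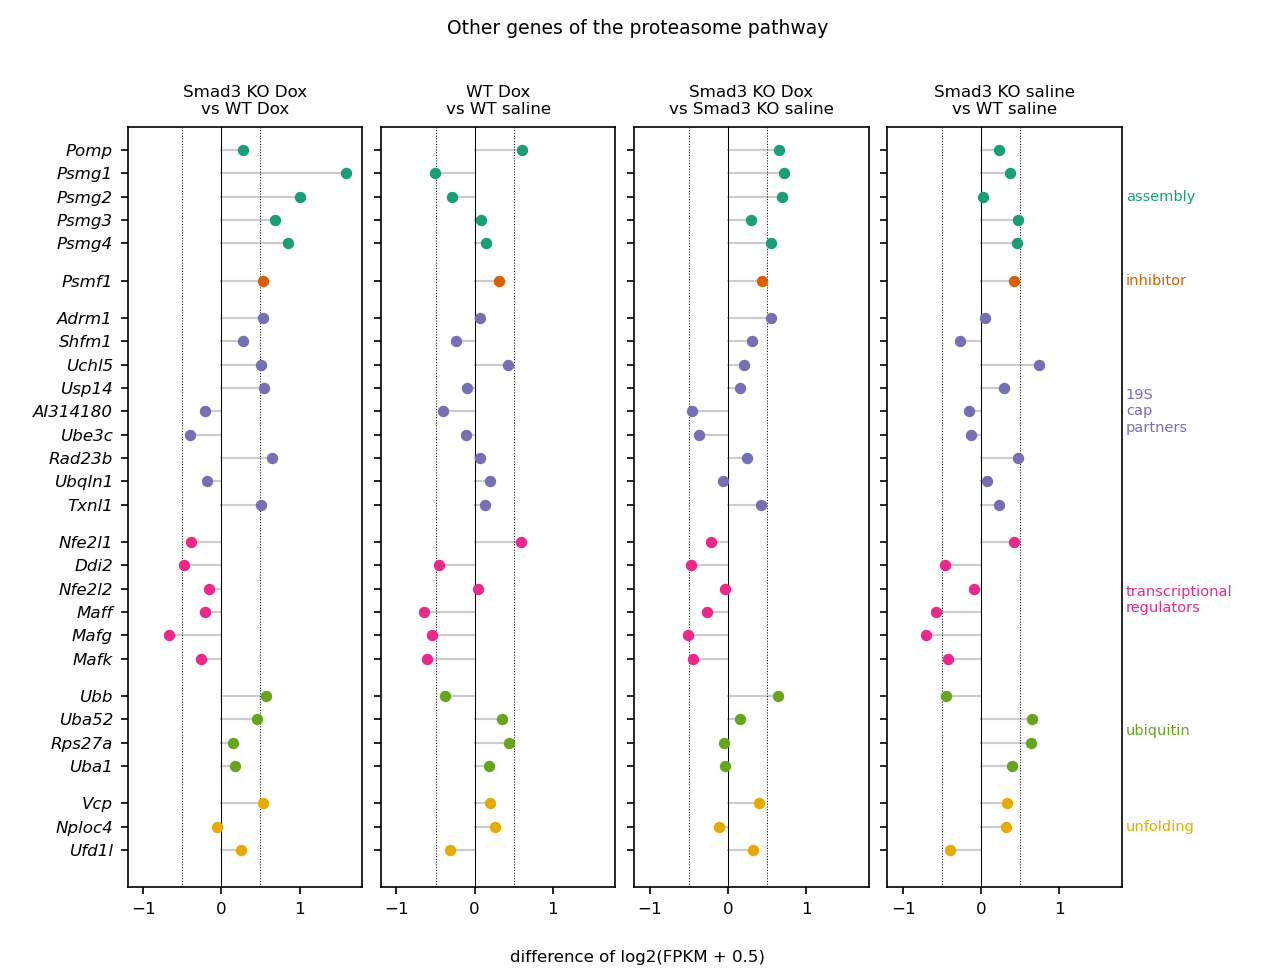
Difference of log2(FPKM + 0.5) for 28 genes of the proteasome pathway outside the symbol pattern (rows, grouped by function) in 4 comparisons, with dotted lines at 0.5 in each direction. The assembly genes other than Pomp (0.28) lie highest in Smad3 KO Dox vs WT Dox, where Psmg1 reaches 1.59, and the transcriptional regulators lie below 0 there, with a median of -0.32.

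Interferon-responsive and peptide loading genes were read from a list of 14, all above the filter. In Smad3 KO Dox against WT Dox, 6 of the 14 were higher by at least 0.5, against 24.0% of all genes. In the same comparison 1 was lower by as much, against 15.2%, and the median was 0.32. In WT Dox against WT saline 3 of the 14 were higher, against 5.06% of all genes, and 0 lower, against 13.1%. Between the Smad3 KO libraries 5 were higher in Smad3 KO Dox, against 17.5%, and 0 lower, against 13.6%. Between the saline libraries 4 were higher in Smad3 KO saline, against 10.0%, and 1 lower, against 14.6%. Tap1, which pumps peptides into the endoplasmic reticulum, had 30.3 FPKM in Smad3 KO Dox and 18.8 FPKM in Smad3 KO saline, against 13.3 FPKM in WT Dox and 16 FPKM in WT saline. Irf1, a factor that induces Psmb9 and Tap1, had 332 FPKM in Smad3 KO Dox and 411 FPKM in Smad3 KO saline, against 294 FPKM in WT Dox and 389 FPKM in WT saline. Tap1 was highest in Smad3 KO Dox, as Psmb9 was, and Irf1 was not. Psmb9 and Tap1 lie side by side on opposite strands and share exon bases, so reads of the 2 cannot be told apart where they overlap.

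Promoters were matched for 34 of the 40 members, which have 37 in the RefSeq table. The antioxidant core TGACNNNGC was in 6 of the 37 (16.2%), against 12.4% of 32851 promoters of the same length. Its holders were Psmb5, Psmb6, Psmc6, Psmd9, Psmd12 and Psme4, which include the flattest member and the 1 lower in Smad3 KO Dox. The interferon-stimulated core GAAANNGAAA was in 4 (10.8%), against 3.44%, with Psme1 its only holder among the interferon-induced members. The gamma-activated site TTCNNNGAA was in 1 (2.70%), that of Psmd2, against 8.30%. The CCAAT box CCAAT was in 13 (35.1%), against 37.4%, and the GC box GGGCGG in 23 (62.2%), against 35.7%. Both strands were searched, the motifs were counted separately also where they overlap, and a match in these letters is a description of the window only.

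The precision of single values was estimated from the spacing of low FPKM, which corresponded to about 21300000 fragments in Smad3 KO Dox, 26000000 in Smad3 KO saline, 26300000 in WT Dox and 28500000 in WT saline. At that depth the member with the fewest fragments had 304 to 396 of them in each library, a counting error of 5.03 to 5.74% (SD), and the median member 1614 to 2136. This error covers counting only. Of the 42 members, 11 share exon bases with another gene, 2 of them on the same strand (Psmb5 and Psmd1), and their values may hold reads of that gene. Psme2b, a near-identical copy of Psme2, had 2.06 to 3.65 FPKM and may have traded reads with it.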

How the data were processed

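The authors deposited FPKM per gene and library, and nothing else was measured here. CASAVA, STAR and the build GRCm38 (p4) stand in the submitters' processing notes, without tool versions. The study's methods give TopHat, Bowtie and Cufflinks and a human build for RNA sequencing in general, which leaves the aligner uncertain. Neither the annotation release nor the handling of strand is given in the sources used here. Values of 51 IDs on several lines were summed, among them Psmd5, and 1 value below 0.05, the lowest value of the table, was set to it. Groups follow the sample titles.

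FPKM carry no counts, and no count model was fitted. With 1 library per group no p-value, SD or test is given. Differences are of log2(FPKM + 0.5), for genes whose mean was 1 FPKM or more. Lengths are of the principal transcript in GENCODE M21, and the length trend was a running median over 501 genes. Python 3.11.15, pandas 2.3.3 and numpy 2.4.6 were used, and the calculation was tested on simulated data.

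The members, lists and sizes were chosen with earlier results of these data known. Named with full values were interferon-induced members and the constitutive genes set beside them, members past a difference of 1, and members under the filter. So were the 3 highest and 3 lowest of each comparison, and the highest and lowest by level. Members named outside this rule were chosen after their values were seen. The alternatives tried were pseudocounts of 0.1 and 1, replacing only the lowest values, no filter or a mean of 5 or 20 FPKM, 3 scalings, and removal of the length trend. Of the symbol pattern, 1 gene is not reported here, nor are some genes of the lists, which were left out of the counts too.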

Additional observations from a re-analysis of the deposited data

Results flagged for a closer look

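For 16 of the 40 proteasome genes the doxorubicin difference had opposite signs in the genotypes, near the 41.4% of all genes tested. With 1 library per group the difference between genotypes was not tested, and several of the WT values lie close to 0. The values are the difference in Smad3 KO minus that in WT on the log2 scale. In 15 of the 40 the value in Smad3 KO was positive and that in WT negative, against 26.7% of all genes. They were Psmd5 (0.94), Psma3 (0.86), Psmd14 (0.77), Psma1 (0.75), Psma4 (0.72), Psmb7 (0.69), Psmc6 (0.64), Psmc4 (0.62), Psmb4 (0.56), Psmd11 (0.48), Psme4 (0.45), Psme1 (0.44), Psmb2 (0.38), Psma2 (0.32) and Psmb3 (0.29). Psme3 (-0.22) had the reverse signs. No member had both a difference of at least 0.5 in Smad3 KO and one of -0.5 or less in WT.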

How the results depend on the processing

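Of the 13 summary values (medians and counts by comparison), 119 alternative values stayed within 1.5 times a count or within 1 SD over the members of a median. A further 24 moved more, and 0 reversed a median past 0.5. Only the median of Smad3 KO Dox against WT Dox (0.63) had that size, so smaller medians could not count as reversed. With TPM, the medians of WT Dox (-0.06) and Smad3 KO saline (-0.10) against WT saline did change sign. Shares in parentheses are of all genes, by the same size, direction and setting. Rescaling to TPM gave 5 members higher by 1 (7.64%) in Smad3 KO Dox against WT Dox and 1 lower by 0.5 (25.1%) in WT Dox against WT saline. In Smad3 KO Dox against Smad3 KO saline it gave a median of 0.74, with 4 higher by 1 (8.19%) and 31 higher by 0.5 (33.2%). In Smad3 KO saline against WT saline it gave a median of -0.10, with 3 lower (39.9%) and 0 higher (2.79%) by 0.5, so the direction of the calls turned, and the difference of differences became 0.76. Median-ratio scaling gave 1 member higher by 1 (4.67%) in Smad3 KO Dox against WT Dox and 2 higher by 0.5 (6.54%) in WT Dox against WT saline, and upper-quartile scaling gave 1 (5.03%) and 9 (8.86%). With the length trend removed, Smad3 KO Dox against WT Dox had a median of 0.28, with 0 higher by 1 (3.72%) and 9 by 0.5 (15.0%), Smad3 KO Dox against Smad3 KO saline had 0.24, with 5 higher by 0.5 (12.7%), Smad3 KO saline against WT saline had 5 higher by 0.5 (9.20%), and the difference of differences was 0.14. By the longest transcript, chosen after seeing the data, these values were 0.29, 1, 7, 0.25, 5, 5 and 0.13. Grouped by genotype tag, also chosen after seeing the data, the median of the members in the mean of 2 KO minus 2 WT libraries was 0.26, against 0.44 by title, and Smad3 was -0.29, against -1.06. Pseudocounts and filters moved no summary value, though Psmd1 fell short of 1 with a pseudocount of 1. No paired analysis was possible because each group has 1 library and the labels give no replicate numbers. The cause of these shifts was not tested.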
